A study of Mus musculus with 12 samples.

Results

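The 4 Janus kinase genes *Jak1*, *Jak2*, *Jak3* and *Tyk2* and the 5 STAT genes *Stat2*, *Stat3*, *Stat5a*, *Stat5b* and *Stat6* were examined in mouse tongue. The 9 genes were chosen by name, as *Jak2* and its relatives, from 32498 named gene rows, and all 9 passed the filter on low levels that left 16847 genes for testing. Bulk RNA-seq had been performed on tongue of C57BL/6 mice, labelled as tumor and tumor-associated. All mice, controls included, drank water with 100 µg/mL of the oral carcinogen 4NQO over 16 weeks. From week 4 after the start of 4NQO, mice of the GA group (6 libraries) received gallic acid (GA), a plant phenolic acid, at 100 mg/kg by oral gavage 5 times a week until sacrifice. The vehicle group (6 libraries) was given the carrier alone by gavage. No group without 4NQO was sequenced among these libraries, and the labels give neither sex nor age. GA against vehicle was the only contrast of the design, and *Jak2* had been named by the study from these same libraries, so its test here is not independent evidence.

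Janus kinases are tyrosine kinases bound to the inner tails of cytokine receptors. When a cytokine brings receptor chains together, the kinases phosphorylate the receptor and then STAT proteins, which pair, enter the nucleus and bind DNA. JAK1, JAK2 and TYK2 serve many receptors in most tissues, whereas JAK3 works with the common gamma chain of lymphocyte cytokine receptors. STAT3 acts downstream of the interleukin-6 family and is often active in oral squamous carcinoma, STAT6 downstream of interleukin-4 and interleukin-13, and the STAT5 pair downstream of growth hormone, prolactin and several lymphoid and myeloid cytokines. STAT2 acts downstream of type I interferon. These proteins are switched by phosphorylation, which RNA levels do not measure.

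The 9 genes lie on 6 chromosomes (GRCm38). *Stat5b* (chr11:100780731-100850724, minus strand), *Stat5a* (chr11:100859351-100885169, plus strand) and *Stat3* (chr11:100885098-100939540, minus strand) are neighbours, and the ends of *Stat5a* and *Stat3* overlap on opposite strands over 1.01% of the exon length of *Stat5a*. *Stat2* (chr10:128270559-128292849) and *Stat6* (chr10:127642986-127660957) are both on the plus strand of chromosome 10. *Jak1* lies at chr4:101152367-101265282, *Jak2* at chr19:29251828-29313080, *Jak3* at chr8:71676296-71690575 and *Tyk2* at chr9:21104068-21131243. *Jak3* shares 7.55% of its exon length with *Insl3* on the same strand, and *Tyk2* shares 8.07% with the antisense transcript 1700084C06Rik. Reads in the part that *Jak3* and *Insl3* share on the same strand cannot be told apart by strand. The strand setting of the counting was not given in the sources used here, so reads in parts shared on opposite strands could not be told apart either.

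*Stat5a* and *Stat5b* are near copies, and the stretch they share is shown because it bears on how well each can be measured. Of 45 pairs among the 9 genes and *Stat4*, only this pair had any 50-base stretch of transcript in common. Such stretches made up 8.21% of the 50-base windows of *Stat5a* and 10.98% of those of *Stat5b*. The longest identical coding run was 324 bases, from coding base 571 to 894 in both genes. Its first 150 bases, which span 2 exons in each gene, follow in lower case on the coding strand (chr11:100874023-100874377 in *Stat5a*, plus strand, and chr11:100798347-100798701 in *Stat5b*, minus strand, introns left out).
Stat5a and Stat5b: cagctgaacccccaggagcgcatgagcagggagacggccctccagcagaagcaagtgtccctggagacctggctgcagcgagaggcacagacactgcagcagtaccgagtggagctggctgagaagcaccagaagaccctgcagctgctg
The authors counted uniquely mapped reads, so a read wholly inside such a stretch could be credited to neither gene.

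DNA elements for STAT dimers are shown next, since target genes are described with the factors. The palindrome TTCNNNGAA, which reads the same on both strands, was looked for in the 250 bases upstream of RefSeq transcript starts (GRCm38.p6). It was present in 2197 of 27025 genes, or 8.13%. All 9 kinase and STAT genes had a window, and 0 of the 9 held the motif. Most listed targets and inhibitors with a window lacked it too. It was present in 2 of 15 STAT3 targets, 0 of 5 STAT5 targets, 2 of 10 STAT6 targets and 1 of 11 inhibitors. The examples shown are *Socs3*, which encodes a feedback inhibitor of JAK signaling, and *Bcl6*, a transcriptional repressor with 3 copies in the window shown. Capitals mark the motif, on each gene's own strand.
Socs3 (chr11:117969482-117969550, minus strand): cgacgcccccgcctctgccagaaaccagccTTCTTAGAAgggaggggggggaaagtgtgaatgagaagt
Bcl6 (chr16:23981333-23981481, minus strand): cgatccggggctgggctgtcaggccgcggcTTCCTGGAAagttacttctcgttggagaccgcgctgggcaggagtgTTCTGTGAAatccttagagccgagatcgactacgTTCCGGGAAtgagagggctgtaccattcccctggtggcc
The log2 differences between groups (GA minus vehicle) of these genes were -0.37 for *Socs3* (SE 0.501) and -0.07 for *Bcl6* (SE 0.194), each smaller than its standard error. The match of letters is a description of the sequence and does not show that a STAT bound there.

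Levels are given as FPKM, fragments per length of exon and per size of the library, scaled between libraries with TMM factors of 0.914 to 1.08. Library totals in reads, fitted from the values, were between 18040203 and 21770341 in the vehicle libraries and between 21237335 and 25192497 in the GA libraries. Reads recovered for the named rows matched to the annotation made up 89.8% to 93.0% of these totals. Reads from Y-linked genes were present in 4 vehicle libraries (1 to 4) and 1 GA library (library 1) and were 0 in the other 7. *Xist*, expressed from the inactive X chromosome of females, had at most 10 reads in the former 5 and 7789 to 19147 in the latter 7. The groups thus differed in sex makeup by these reads, so GA against vehicle may in part be a contrast of sexes, and values with and without those libraries are given where they move a result. *Lipf*, a product of the serous glands of the tongue, was above 100 FPKM in 2 vehicle libraries (3 and 5) and in GA library 2. Markers of tongue epithelium and of muscle were detected throughout, with 10 of 10 tested in each list. In bulk tissue, fewer cells of a type and less RNA per cell cannot be told apart.

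Across all 12 libraries, *Stat6* was the most abundant of the 9 genes at 28.1 FPKM ± 4.37 (SD, n = 12), followed by *Jak1* at 18.2 ± 2.85 and *Stat3* at 18.2 ± 2.87. *Jak2* had a mean of 11.7 ± 2.25 and *Stat5b* of 6.20 ± 0.613. *Tyk2* at 3.59 ± 0.349, *Stat2* at 3.41 ± 1.49, *Stat5a* at 1.95 ± 0.194 and *Jak3* at 1.84 ± 0.587 were the least abundant. The tongue samples thus held about equal levels per length of the transcripts for the receptor kinase JAK1 and for STAT3, and little RNA for the lymphocyte kinase JAK3.

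Neighbours in that order were compared within libraries with an exact two-sided sign-flip test of the log2 difference, whose smallest possible p is 0.000488. *Stat6* exceeded *Jak1*, *Stat3* exceeded *Jak2*, *Jak2* exceeded *Stat5b* and *Stat5b* exceeded *Tyk2* in 12 of 12 libraries each, with an exact p of 0.000488 in all 4 pairs. *Stat2* exceeded *Stat5a* in 9 of 12 libraries (exact p = 0.00928). The other 3 of the 8 neighbouring pairs did not differ beyond their spread. *Jak1* and *Stat3* were in that order in 6 of 12 libraries (exact p = 0.975), as were *Tyk2* and *Stat2* (exact p = 0.350) and *Stat5a* and *Jak3* (exact p = 0.377).

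**Figure D1:**
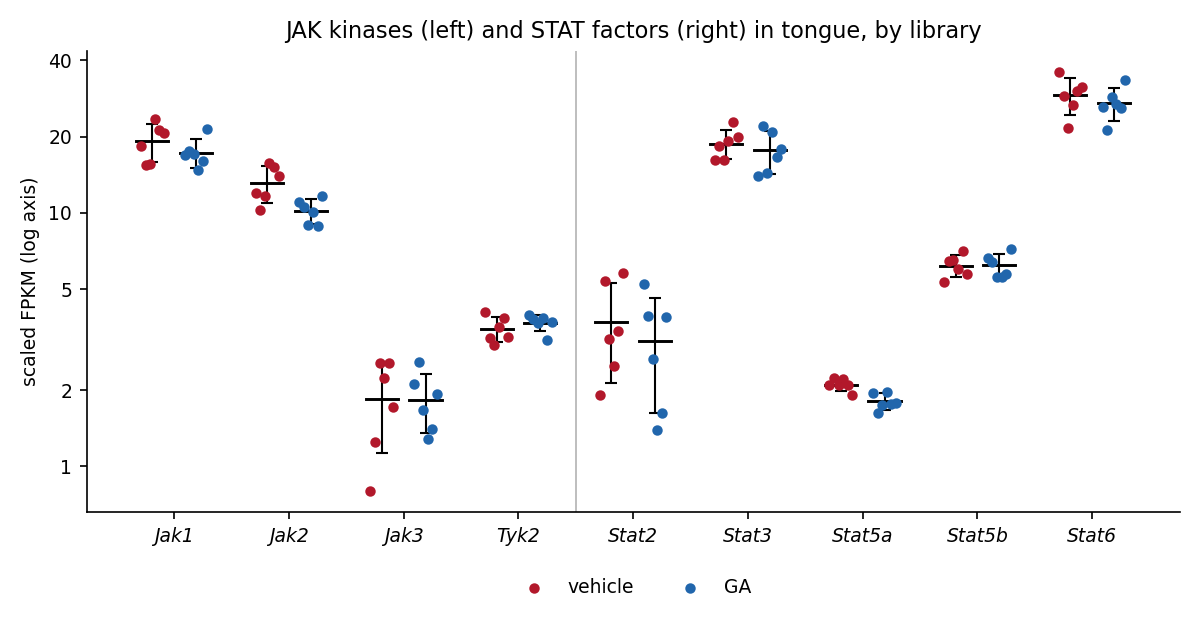
Scaled FPKM (log axis) of the 4 kinase and 5 STAT genes in each library, 6 vehicle (red) and 6 GA (blue), with the mean and SD of each group in black. *Stat6* is highest, *Jak2* points are shifted down with GA with overlap, and *Stat2* and *Jak3* spread most widely within both groups.

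Spread across libraries differed widely among the genes. The coefficient of variation was 43.8% for *Stat2* and 31.9% for *Jak3*, against 9.72% for *Tyk2*, 9.89% for *Stat5b* and 9.92% for *Stat5a*. The highest library exceeded the lowest 4.17-fold for *Stat2* and 1.35-fold for *Tyk2*. *Jak3* rested on 79 to 320 reads per library, whereas *Stat3* rested on 2851 to 4884, so counting error was larger for the former.

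None of the 9 genes passed the call used for GA against vehicle, an adjusted p below 0.1 together with a log2 fold change of 0.58 or more in size (limma, Benjamini-Hochberg over 16847 genes). Over all tested genes the call was also made for 0, or 0%, and the smallest adjusted p was 0.99996. By limma-voom on the recovered reads, 0 of the 9 were called as well. At an unadjusted p below 0.05, 1 of the 9 genes, *Jak2*, stood below vehicle, where 2.16% of all tested genes passed in either direction and 1.04% in the lower direction. A single gene decides the share among 9. The log2 difference was negative for 6 of the 9, with a median of -0.11, against 0.004 over all tested genes, of which 49.0% were lower. All 6 GA libraries lay below the vehicle median for 2 of the 9 genes, *Jak2* and *Stat5a*, as was so for 2.75% of all tested genes.

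**Figure D2:**
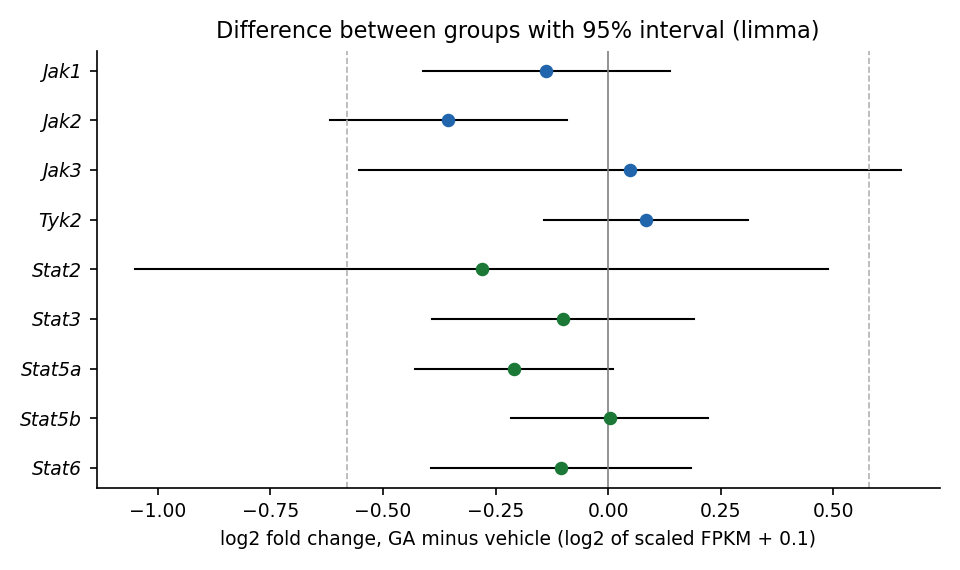
Log2 fold change (GA minus vehicle, on log2 of scaled FPKM + 0.1) of each gene with its 95% interval from limma. Kinases are blue, STAT genes are green, and dashed lines mark the fold change limit of 0.58 in either direction. The interval of *Jak2* lies wholly below 0, from -0.62 to -0.09, and the others include 0.

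*Jak2* encodes the kinase of the growth hormone, erythropoietin, interleukin-3 and interferon-gamma receptors. Its level in vehicle libraries 1 to 6 was 12.01, 10.23, 11.65, 15.71, 15.13 and 14.04 FPKM. In GA libraries 1 to 6 it was 11.03, 10.53, 8.95, 10.06, 8.85 and 11.64 FPKM. Vehicle libraries 4, 5 and 6 were the highest, 5 vehicle libraries lay above every GA library, and vehicle library 2 lay within the GA range.

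The group means of *Jak2* were 13.1 FPKM ± 2.16 for vehicle and 10.2 ± 1.12 for GA (SD, 6 libraries in both), from 951 to 1838 and from 915 to 1524 reads per library. The GA minus vehicle log2 difference was -0.35 (SE 0.121), a level 21.8% lower with GA, inside the fold change limit. The exact two-sided permutation test over all assignments of the libraries to groups gave p = 0.0152, where the smallest it can give is 0.00216. In limma the unadjusted p was 0.0122, which ranked 59th among all tested genes, and the adjusted p was 0.99996.

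The *Jak2* difference kept its sign and an unadjusted limma p below 0.05 in 29 of 29 alternative analyses. In 7 libraries, 2 vehicle and 5 GA, that lacked Y-linked reads it was -0.55 (limma unadjusted p = 0.00532). That value rests on vehicle libraries 5 and 6, which were among the highest in *Jak2* (15.13 and 14.04 FPKM). Among libraries with Y-linked reads only 1 had received GA, so no difference is given there. In these, *Jak2* was 12.01, 10.23, 11.65 and 15.71 FPKM in vehicle libraries 1 to 4 and 11.03 FPKM in GA library 1. Without the 3 libraries high in *Lipf* the *Jak2* difference was -0.35 (limma unadjusted p = 0.0391). Markers of neutrophils were lower with GA in 9 of 9 tested genes, beside 49.0% of all tested genes, while *Ly6g*, *Camp* and *Ngp* were below the level filter. Over all 12 listed markers, those below the filter included, the summed level was 1108 to 2618 FPKM in vehicle and 235 to 1827 FPKM in GA libraries. Such a sum is set mainly by the most abundant of the markers. The neutrophil score, the mean log2 level of these markers, ran from -0.14 to 2.89 in vehicle and from -0.097 to 1.93 in GA libraries. This score was highest in vehicle libraries 4 and 5, in which *Jak2* was also highest. The next highest score was that of GA library 2, with *Jak2* at 10.53 FPKM. Vehicle library 6, with *Jak2* at 14.04 FPKM, had a score of 0.201. With the neutrophil score as a term the *Jak2* difference was -0.29 (limma unadjusted p = 0.0261). Whether neutrophil content had a part in the *Jak2* difference was not tested beyond this term.

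*Jak1*, the kinase paired with JAK2 or TYK2 on most class II cytokine receptors, ranged from 15.4 through a median of 19.6 to 23.5 FPKM with vehicle and from 14.7 through 17.0 to 21.4 with GA. Both groups overlapped almost fully, with 1 GA library below the vehicle range. On the log2 scale the difference was -0.14 (SE 0.126, limma unadjusted p = 0.298), with an interval from -0.41 to 0.14. Without vehicle library 4 it was -0.07, and in the libraries lacking Y-linked reads -0.28. *Jak1* and *Jak2* were high and low in much the same libraries (Pearson r = 0.80, Spearman rho = 0.71, 12 libraries sharing scaling and tissue makeup), and vehicle libraries 4, 5 and 6 were high in both.

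*Tyk2*, the kinase of type I interferon and interleukin-12 receptors, had 3.01, 3.39 and 4.05 FPKM as lowest, median and highest vehicle values. With GA these were 3.15, 3.76 and 3.96 FPKM, and 5 of 6 GA libraries were above the vehicle median. Its log2 difference was 0.08 (SE 0.104, limma unadjusted p = 0.438), with an interval from -0.14 to 0.31. It ran from 0.04 without vehicle library 3 to 0.13 without vehicle library 1.

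*Jak3* had lowest, median and highest levels of 0.796, 1.98 and 2.56 FPKM with vehicle and 1.29, 1.81 and 2.58 FPKM with GA. The log2 difference was 0.05 (SE 0.278), with a wide interval from -0.55 to 0.65. Its direction was not stable. Without vehicle library 1, which had the lowest level, the difference was -0.16, and with all libraries that held Y-linked reads left out it was -0.27. *Jak3* was highest in the 3 libraries high in *Lipf*, vehicle 3 (2.55 FPKM), vehicle 5 (2.56) and GA 2 (2.58). The mean log2 level of T and NK cell markers there was -1.81, -1.35 and -1.29. That mean was highest in GA library 1 (-0.866), with *Jak3* at 2.11 FPKM. Without those 3 libraries the *Jak3* difference was 0.22 (limma unadjusted p = 0.463). The part of tissue makeup in these values was not tested.

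Since *Jak2* was the only kinase below vehicle at an unadjusted p below 0.05, its difference from each of the other 3 kinases was tested directly, as the log2 ratio of both levels within a library. These 3 ratios share *Jak2*, and their p-values are unadjusted. *Jak2* stood out in these same libraries, so the ratio tests count its low level again and are not independent evidence. The *Jak2*/*Tyk2* ratio was 2.92, 3.11, 3.78, 4.35, 3.85 and 4.22 in vehicle libraries 1 to 6 and 2.74, 2.72, 2.39, 2.58, 2.75 and 3.09 in GA libraries 1 to 6. All 6 GA libraries were below the vehicle median, 5 of them below every vehicle library, and the ranges overlapped through GA library 6. On the log2 scale the ratio was 1.87 ± 0.235 with vehicle and 1.44 ± 0.122 with GA (n = 6 in both, SD), a difference of -0.44 (exact permutation p = 0.00433). That difference was negative with p below 0.05 in 23 of 23 alternative analyses. In the 7 libraries that lacked Y-linked reads its exact permutation p was 0.0476, the smallest the test can give there.

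The *Jak2*/*Jak1* ratio was 0.655, 0.666, 0.752, 0.669, 0.713 and 0.679 in vehicle libraries 1 to 6 and 0.653, 0.605, 0.526, 0.686, 0.553 and 0.546 in GA libraries 1 to 6. GA library 4 lay inside the vehicle range and the other 5 lay below it. The GA minus vehicle log2 difference was -0.22 (SE 0.0699, exact permutation p = 0.0195). It was -0.18 without the 3 libraries high in *Lipf* (exact permutation p = 0.119) and -0.26 within the 7 libraries that lacked Y-linked reads (exact permutation p = 0.143). The p was thus not below 0.05 in either smaller set. Within the 7 libraries only the most extreme assignment could reach a p below 0.05, as the smallest possible there is 0.0476.

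The *Jak2*/*Jak3* ratio had lowest, median and highest log2 values of 2.15, 2.85 and 3.76 with vehicle and 1.99, 2.44 and 2.87 with GA. Vehicle library 1, in which *Jak3* was lowest, gave the highest ratio. The difference of -0.40 (SE 0.251) did not pass the exact permutation test (p = 0.132). Without vehicle library 1 it was -0.22, and without vehicle library 3 it was -0.54 (exact permutation p = 0.0325).

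**Figure D3:**
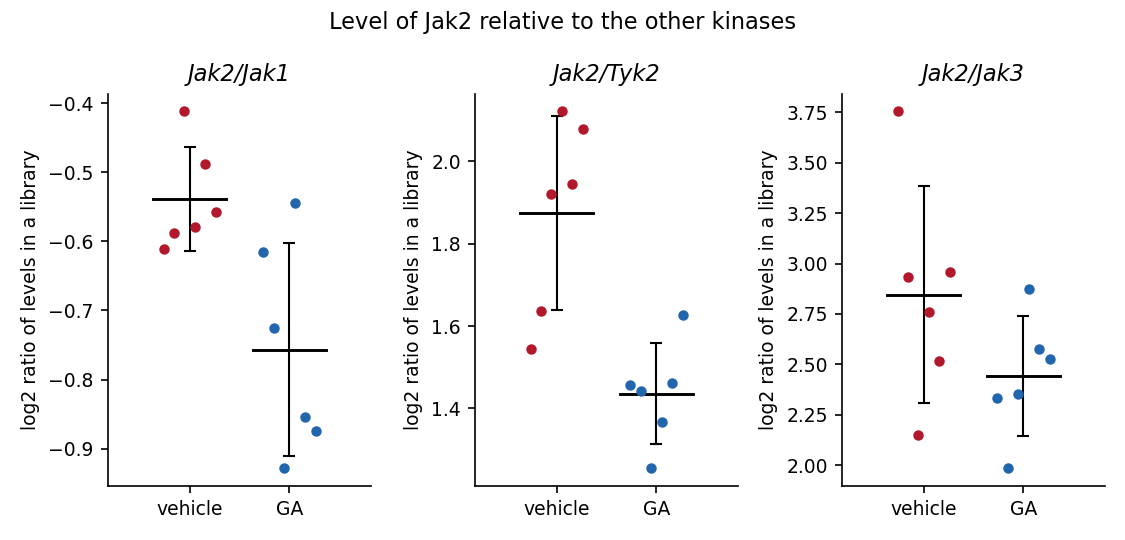
Log2 ratio of the level of *Jak2* to those of *Jak1*, *Tyk2* and *Jak3* in each library, with the mean and SD of 6 vehicle (red) and 6 GA (blue) libraries. Each panel has its own axis range. The ratio to *Tyk2* is lower in 5 GA libraries than in any vehicle library, the ratio to *Jak1* likewise in 5, and the ratio to *Jak3* in 1.

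Among the STAT genes, *Stat5a* showed the narrowest groups. Its level was 2.09, 2.23, 2.09, 2.20, 2.09 and 1.91 FPKM in vehicle libraries 1 to 6. In GA libraries 1 to 6 it was 1.96, 1.63, 1.75, 1.97, 1.76 and 1.79 FPKM. Vehicle library 6 fell inside the GA range and the other 5 lay above it.

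The means of *Stat5a* were 2.10 FPKM ± 0.113 with vehicle and 1.81 ± 0.132 with GA (n = 6 in both, SD), on 258 to 366 reads per library. The log2 difference of -0.21 (SE 0.101) gave an exact permutation p of 0.00649. Limma, which draws each gene's variance toward that of genes of like level, gave an unadjusted p of 0.0595. It was below 0.05 when limma was run without a trend (unadjusted p = 0.0330), with median-of-ratios scaling (unadjusted p = 0.0420) and with limma-voom on recovered reads (unadjusted p = 0.0387). With the libraries that held Y-linked reads left out, the difference was -0.16 (limma unadjusted p = 0.336), and with Y-linked reads as a term it was -0.15 (limma unadjusted p = 0.225).

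*Stat5b*, the near copy, had similar ranges in both groups. Its lowest, median and highest levels were 5.33, 6.24 and 7.04 FPKM with vehicle and 5.57, 6.08 and 7.23 FPKM with GA. On the log2 scale the difference was 0.003 (SE 0.101), with an interval from -0.22 to 0.22, and it turned negative under median-of-ratios scaling (-0.02). Whether the *Stat5a* and *Stat5b* differences differ from each other was not tested.

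*Stat3* ranged from 16.1 through a median of 18.7 to 22.8 FPKM with vehicle and from 13.9 through 17.3 to 22.1 FPKM with GA. The groups overlapped, with GA libraries 1 and 3 below every vehicle library. Its log2 difference was -0.10 (SE 0.134, limma unadjusted p = 0.469), with an interval from -0.39 to 0.19. Leaving out single libraries gave -0.17 (GA library 2) to -0.04 (GA library 1). It was -0.26 with Y-linked reads as a term (limma unadjusted p = 0.0717) and -0.02 with the neutrophil score as a term (limma unadjusted p = 0.847).

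*Stat6* ranged from 21.5 through 29.7 to 36.04 FPKM with vehicle and from 21.2 through 26.6 to 33.3 FPKM with GA. The log2 difference was -0.11 (SE 0.133, limma unadjusted p = 0.442) and its interval ran from -0.39 to 0.18. The group difference was smaller than the spread of either group. It ran from -0.19 without vehicle library 3 to -0.04 without GA library 2.

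*Stat2* ranged from 1.92 through 3.30 to 5.81 FPKM with vehicle and from 1.39 through 3.27 to 5.24 FPKM with GA. High and low libraries occurred in both groups, vehicle 2 and 6 and GA 1 being high and vehicle 1 and GA 4 and 5 low. The GA minus vehicle log2 difference was -0.28 (SE 0.355, limma unadjusted p = 0.444). It depended on single libraries, from -0.46 without GA library 1 to -0.09 without GA library 4. With array weights it was -0.73 (limma unadjusted p = 0.0503), and in the libraries lacking Y-linked reads -0.82 (limma unadjusted p = 0.129).

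*Stat4*, expressed mainly in lymphocytes, is outside the 9 genes and is given for comparison. It had 0 to 12 reads per library and was below the level filter.

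Upstream of the kinases, 20 of 33 listed cytokine and hormone ligand genes passed the level filter. By limma, 0 of these were called and 0 had an unadjusted limma p below 0.05. The log2 difference was negative for 14 of the 20, with a median of -0.30, beside 0.004 over all tested genes, of which 49.0% were lower. *Il9*, *Il3*, *Epo* and *Ifnb1* were listed at 0 in every library. *Il19*, an interleukin-10 family cytokine of epithelia, had lowest, median and highest levels of 1.14, 4.81 and 13.5 FPKM with vehicle and 0, 1.02 and 5.77 FPKM with GA, a log2 difference of -1.90 (SE 0.896, limma unadjusted p = 0.0550). *Il11*, of the interleukin-6 family, ranged from 0.0489 to 21.2 FPKM with vehicle and from 0.141 to 1.92 FPKM with GA, with near-equal medians of 0.313 and 0.344 FPKM.

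Of 42 receptor genes, 37 were tested, 0 were called and 1 had an unadjusted p below 0.05, a share of the list near the 2.16% of all tested genes. That gene, *Il10ra*, is given as a description because its p chose it. *Il10ra*, the ligand-binding chain of the interleukin-10 receptor that signals through JAK1 and TYK2, ranged from 1.66 to 2.52 FPKM with vehicle and from 0.868 to 2.03 FPKM with GA. All 6 GA libraries lay under the vehicle median, and the log2 difference was -0.57 (SE 0.188, limma unadjusted p = 0.00960). The 2 most abundant receptors were the interleukin-13 receptor chain *Il13ra1* and the interleukin-4 receptor chain *Il4ra*, both upstream of STAT6. *Il13ra1* had 25.5 FPKM ± 8.81 with vehicle and 21.5 ± 2.20 with GA, and its log2 difference was -0.17. *Il4ra* had 20.8 FPKM ± 15.5 with vehicle and 10.9 ± 9.86 with GA (n = 6 in both, SD). Its log2 difference was -0.95 with a standard error of 0.546 and overlapping ranges.

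Genes that restrain the pathway lay close to 0 as a group. All 18 inhibitors were tested, 9 below and 9 above vehicle, and the median log2 difference was 0.001 and a range from -0.37 to 0.20. The phosphatases *Ptpn11* and *Ptpn1* were the most abundant. *Ptpn11* had 23.3 FPKM ± 2.98 with vehicle and 23.3 ± 1.17 with GA, and *Ptpn1*, which removes phosphate from JAK2 and TYK2, had 22.9 ± 5.95 and 20.3 ± 2.54. None of the 18 was called or had an unadjusted limma p below 0.05.

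Target genes were grouped by the factor best known to drive them, with some genes in more than 1 list. Of 17 STAT3 targets tested, 16 were lower with GA, beside 49.0% of all tested genes, with a median log2 difference of -0.10. Several of these differences were far smaller than their standard errors. The signs come from the same 12 libraries, so they are not 17 independent observations. The gene farthest from 0, *Saa3*, an acute-phase gene named after its value was seen, was at -2.24 (SE 1.63). The most abundant were *Junb*, a subunit of AP-1, at 133 FPKM ± 33.05 with vehicle and 116 ± 28.1 with GA, and *Cebpb*, a transcription factor of inflammation, at 61.9 ± 11.9 and 57.9 ± 11.6. Of 8 STAT5 targets, 6 were lower with a median of -0.11. The kinase gene *Pim1* had 19.1 FPKM ± 7.34 with vehicle and 15.8 ± 2.23 with GA, and the cyclin gene *Ccnd1* had 17.3 ± 3.94 and 17.2 ± 4.51.

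Of 13 STAT6 targets tested, 9 were lower, beside 49.0% of all tested genes, with a median log2 difference of -0.31. *Arg1*, the arginase of alternatively activated macrophages, had 112 FPKM ± 49.5 with vehicle and 85.1 ± 53.3 with GA, while *Retnla*, another gene of such cells, had 19.8 ± 14.3 and 33.2 ± 42.8 (n = 6 in both, SD). The ranges of the groups overlapped for all 6 of these most abundant targets. No gene of the 3 target lists was called or had an unadjusted limma p below 0.05.

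**Figure D4:**
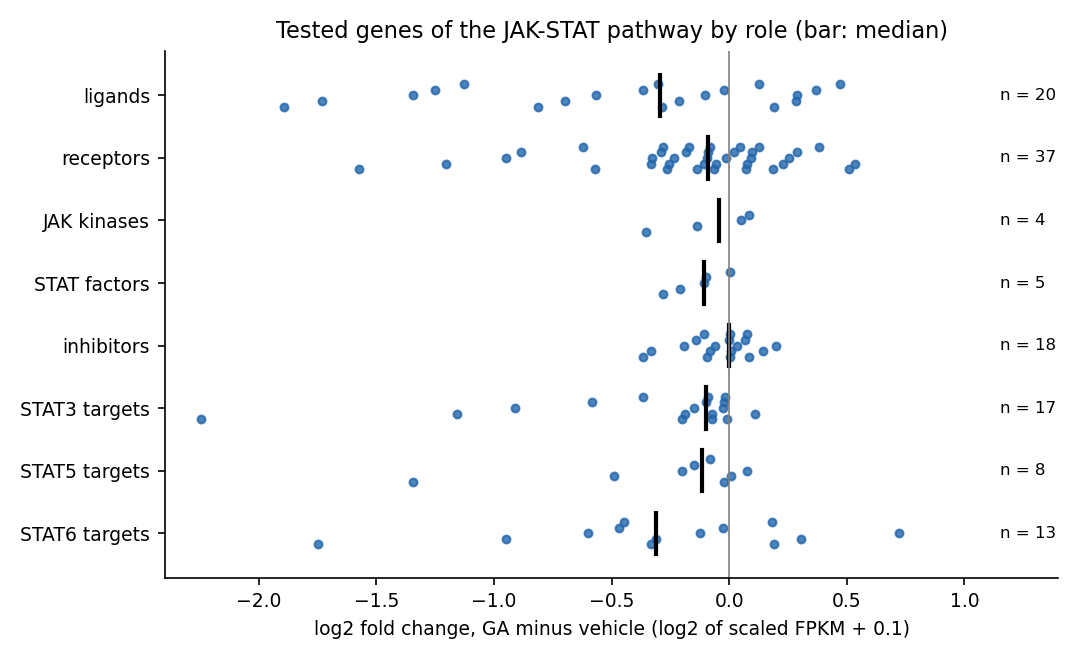
Log2 fold change (GA minus vehicle, on log2 of scaled FPKM + 0.1) of every tested gene of the lists shown, by role, with the median of each list as a black bar and the number of tested genes at the right. Inhibitors cluster around 0, from -0.37 to 0.20, and ligands spread most to the left, down to -1.90, after a STAT3 target at -2.24.

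Genes most like *Jak2* and *Stat3* across the 12 libraries were looked for among 12162 genes whose mean reached 1 FPKM, by Pearson r of log2 level, as a description. For *Jak2* these were *Sorcs2* (r = 0.91), *Slc27a3* (r = 0.88), *Cxadr* (r = 0.85), *Shc1* (r = 0.85) and *Rnf141* (r = 0.85). For *Stat3* they were Gm26387 (r = 0.88), Gm23639 (r = 0.87), *Ampd3* (r = 0.84), *Mthfsl* (r = 0.82) and *Sele* (r = 0.82). None of the 9 kinase and STAT genes was among either set of 5. All libraries share tissue makeup and scaling, so these values carry no test.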

How the data were processed

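The 12 tongue libraries, 6 per group by their labels, were made with a SMARTER mRNA-Seq kit. The authors used HISAT2 for alignment to mm10 and featureCounts for uniquely mapped reads, and deposited FPKM values per gene, 1 table per library. How the FPKM were scaled was not given in the sources used here. Of 55463 gene rows, 22965 had no gene name and were left out, with 16.2% to 25.5% of the FPKM sum. Whole reads were recovered from FPKM, annotated exon length (GENCODE M21) and a length offset fitted per library. Of low values, 97.6% to 98.3% came out whole within 0.02 reads.

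FPKM were scaled by TMM, set to log2(FPKM + 0.1), and fitted over genes averaging 0.1 FPKM or more with limma 3.58.1 (R 4.3.3, trended variance, two-sided). A fold change on this scale understates the change of low genes. The study's methods name a count model, but FPKM called for a log-scale test, and limma-voom on recovered reads (15327 genes) was an alternative. Single values were tested by exact permutation (scipy 1.17.1). Methods were tested on simulated data. Correlations within groups between libraries were 0.888 to 0.971 (Spearman). Labels number the replicates but name no animals, so p-values measure the spread between these libraries. Precision follows depth, from 18040203 reads upward, and counting error is included in the spread.

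The genes and pathway lists were chosen with earlier results of these data known. Named genes were the 9, *Stat4*, the 2 most abundant genes of each list, list genes at an unadjusted p below 0.05 and the 5 genes most like *Jak2* and *Stat3*. *Socs3* and *Bcl6* were added for their promoter motif after their values were seen. Alternatives changed the pseudocount, filter, scaling, variance model, marker and Y-linked terms, the replicate block and the libraries included. One planned comparison gene and one gene list are not reported here.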

Additional observations from a re-analysis of the deposited data

Results flagged for a closer look

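*Tyk2* in GA library 5 was low for its group, at 3.15 FPKM against 3.69 FPKM or more in the other 5. On the log2(FPKM + 0.1) scale its gap to the nearest library was 0.692 of the range of the group, above Dixon's critical value for 6 samples at 95%. It was the 1 flag among 26 groups of libraries examined, or 3.85%, where chance flags about 1 in 20.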

How the results depend on the processing

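No kinase or STAT gene was called in any of 29 alternative analyses. The number at an unadjusted p below 0.05 was 2 instead of 1 under median-of-ratios scaling, without a variance trend and with limma-voom, the second being *Stat5a*. *Jak2* ranged from -0.55 to -0.29 on the log2 scale, and from -0.42 to -0.30 when single libraries were left out. The *Jak2*/*Jak1* ratio difference of -0.22 was -0.26 in libraries without Y-linked reads and -0.18 without the libraries high in *Lipf*, no longer past the threshold with fewer libraries, and -0.26 to -0.18 with 1 library left out. The *Jak2*/*Jak3* difference of -0.40 passed the threshold of 0.05 with terms for neutrophils (-0.54), glands (-0.52) and muscle (-0.36) and without the libraries high in *Lipf* (-0.57), and ran from -0.54 to -0.22 with 1 library left out. The cause was not tested. The *Jak2*/*Tyk2* difference stayed negative with an unadjusted permutation p below 0.05 in 23 of 23 alternatives. *Jak3* turned from 0.05 to -0.014 with array weights, -0.025 with the Y-linked term and -0.27 in libraries without Y-linked reads, and ran from -0.16 to 0.16 with 1 library left out. *Stat5b* turned from 0.003 to -0.016 (median-of-ratios scaling), -0.057 (array weights), -0.0024 (muscle term) and -0.065 (libraries without Y-linked reads), and ran from -0.042 to 0.041 with 1 library left out. *Jak1*, *Jak2*, *Tyk2*, *Stat2*, *Stat3*, *Stat5a* and *Stat6* kept their direction in 29 of 29, and 5 of the 8 neighbouring pairs of levels differed at an exact p below 0.05 in 14 of 14 alternatives, although the means of neighbours that did not differ could change places. Same-numbered libraries did not deviate together (correlations -0.37 to 0.08), so the numbers were not taken as pairs. With a replicate block the *Jak2* difference was -0.35 (limma unadjusted p = 0.0294). Depth limited *Stat4* (at most 12 reads).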

Other observations

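Among the 36 pairs of the 9 genes, the correlation of log2 level over the 12 libraries was highest for *Jak1* and *Jak2* (r = 0.80, and 0.77 without the 2 libraries farthest from the median), followed by *Jak3* and *Stat5b* (r = 0.68). It was lowest for *Jak3* and *Stat6* (r = -0.58, and -0.34 without 2 libraries). The neighbours and near copies *Stat5a* and *Stat5b* had r = 0.03. These are descriptions over libraries that share tissue makeup and scaling.

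Of the markers of other cell types limma called 0, and 1 gene, *Cd79a* of the B cell list, had an unadjusted p below 0.05. The values below are counts by sign and medians, with no test of any list, and 49.0% of all tested genes were lower with GA. Their part in the values of the kinase and STAT genes was not tested beyond the terms given above. Markers of fibroblasts were lower with GA in 7 of 7 genes (median log2 difference -0.45), those of glands in 7 of 7 tested (-1.45), and those of epithelium in 9 of 10 (-0.17). The gland score was 4.11 to 4.23 in the 3 libraries high in *Lipf*, 2 vehicle and 1 GA, and lay between -2.75 and -2.19 in the other 9. Those of endothelium were higher in 5 of 5 (0.14) and those of muscle in 7 of 10 (0.45). Those of T and NK cells, which express *Jak3*, were higher in 7 of 9 tested (0.06), with a summed level of 1.42 to 5.80 FPKM in vehicle and 2.24 to 5.67 FPKM in GA libraries. The myeloid markers were lower in 8 of 10 (-0.18). B cell markers were higher in 2 of 4 tested (median 0.34).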
